A study of Mus musculus with 6 samples.

Results

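The genes described here are the H/ACA box snoRNA and scaRNA genes of mouse microglia, chosen as the genes whose symbol starts with Snora or Scarna and whose raw counts sum to at least 10 over 6 RNA-seq libraries. They were thus selected on their measured counts, pooled over both ages, and not on a difference between ages. The rule took 36 of the 50 genes with such symbols among 38924 genes, 27 named Snora and 9 named Scarna. The libraries came from microglia of C57BL/6 WT female mice, 3 mice aged 5 weeks and 3 aged 24 weeks, with 1 library per mouse. These mice were the age-matched controls of a Rett syndrome study whose Het libraries were not analysed here. Cells were taken from whole brain after the meninges were dissected away, by myelin removal and magnetic beads against CD11b, a surface protein of microglia and other myeloid cells, so the RNA is of an enriched and not a pure population. The comparison made was 24 weeks against 5 weeks.

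H/ACA RNAs fold into hairpins joined by a short H box and end in an ACA box, and together with the proteins dyskerin, Nop10, Nhp2 and Gar1 they direct the change of uridine to pseudouridine at sites matched by the RNA. Those named snoRNAs act mostly on ribosomal RNA in the nucleolus, while scaRNAs sit in Cajal bodies and act on the small nuclear RNAs of the spliceosome. Most are cut out of introns of a host gene after splicing, and the protein complex then shields the ends of the RNA from exonucleases.

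The sequences of 10 members are printed because the results turn on them. They were read from the GENCODE mouse release 21 transcripts on GRCm38. The first 4 held the largest falls with age. Snora73b, also known as U17, takes part in the cleavage of the precursor of 18S rRNA and lies at chr4:132352322-132352526 on the minus strand in the Rcc1 gene. Snora23 lies at chr7:110046364-110046547 on the plus strand in Ipo7, Snora21 at chr11:97781639-97781775 on the minus strand in Rpl23, and Snora34 at chr15:98519716-98519853 on the minus strand in Kansl2. Capitals mark the H box, searched as ANANNA in the central segment when the RNA is cut into 3 equal parts, and the ACA nearest the 3′ end.
Snora73b: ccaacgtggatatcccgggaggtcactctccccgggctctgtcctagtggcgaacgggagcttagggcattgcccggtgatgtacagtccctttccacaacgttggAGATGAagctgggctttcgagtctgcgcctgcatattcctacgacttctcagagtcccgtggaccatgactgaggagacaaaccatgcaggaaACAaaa
Snora23: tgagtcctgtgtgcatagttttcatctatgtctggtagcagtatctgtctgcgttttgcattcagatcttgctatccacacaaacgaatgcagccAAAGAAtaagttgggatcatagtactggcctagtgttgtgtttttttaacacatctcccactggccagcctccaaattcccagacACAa
Snora21: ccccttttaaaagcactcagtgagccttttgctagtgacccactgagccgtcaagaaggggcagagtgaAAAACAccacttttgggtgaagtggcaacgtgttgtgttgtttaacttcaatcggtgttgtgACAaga
Snora34: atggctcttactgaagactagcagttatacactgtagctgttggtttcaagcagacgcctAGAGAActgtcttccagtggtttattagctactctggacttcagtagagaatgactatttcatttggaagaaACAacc

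The next 4 are counterparts of these that were scarce or did not pass the test. Snora73a (chr4:132352775-132352979, minus strand) lies in the Rcc1 gene, as Snora73b does. The pair, 205 bases each, were 96.6% identical, differing by 7 edits. Snora2b (chr15:98526346-98526482, minus strand) shares the host Kansl2 with Snora34. Snora28 (chr12:111540941-111541067, plus strand, in Eif5) had the highest level per length at 24 weeks among the Snora members, and Snora75 (chr1:86351169-86351301, minus strand, in Ncl) was the tested member with a positive age difference. Capitals mark the same boxes.
Snora73a: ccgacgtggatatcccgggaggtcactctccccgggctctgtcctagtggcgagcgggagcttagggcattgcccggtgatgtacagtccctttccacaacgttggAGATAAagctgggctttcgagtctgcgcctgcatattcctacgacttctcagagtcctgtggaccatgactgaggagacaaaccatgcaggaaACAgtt
Snora2b: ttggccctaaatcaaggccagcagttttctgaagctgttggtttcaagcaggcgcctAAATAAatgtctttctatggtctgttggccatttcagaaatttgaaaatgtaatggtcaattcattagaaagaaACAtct
Snora28: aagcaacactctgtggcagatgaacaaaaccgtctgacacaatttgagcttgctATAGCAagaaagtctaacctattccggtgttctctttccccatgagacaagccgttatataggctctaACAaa
Snora75: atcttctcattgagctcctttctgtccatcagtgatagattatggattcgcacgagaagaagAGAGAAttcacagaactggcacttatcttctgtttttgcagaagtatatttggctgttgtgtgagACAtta

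The last 2 are the scaRNAs with the most counts, each shown as a stretch of 200 bases. Scarna2 guides 2′-O-methylation of U2 snRNA, and its bases 215 to 414 of 414 lie at chr3:108554338-108554537 on the minus strand. Scarna10, also known as U85, guides modification of U5 snRNA, and its bases 1 to 200 of 325 lie at chr6:125186484-125186683 on the minus strand in Ncapd2. Capitals mark TGATGA, the C box of the other snoRNA class, C/D box RNAs, which guide 2′-O-methylation.
Scarna2: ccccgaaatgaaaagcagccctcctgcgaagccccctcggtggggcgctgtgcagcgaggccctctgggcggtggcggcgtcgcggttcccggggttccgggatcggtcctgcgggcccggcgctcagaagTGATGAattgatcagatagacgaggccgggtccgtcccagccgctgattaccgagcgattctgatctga
Scarna10: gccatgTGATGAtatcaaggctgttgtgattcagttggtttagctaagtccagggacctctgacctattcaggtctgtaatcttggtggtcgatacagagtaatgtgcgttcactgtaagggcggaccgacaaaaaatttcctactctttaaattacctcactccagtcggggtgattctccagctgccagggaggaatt

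The symbol did not always match the box structure. ACA with at most 10 bases after it was found in 27 of 27 Snora members, and at exactly 3 bases from the end in 24. An H box together with that ACA was found in 25 of 27. Among the Scarna members, 5 of 9 had the ACA and 3 of 9 had both boxes, whereas 6 of 9 held TGATGA. Scarna2, Scarna10, Scarna6 and Scarna9 held TGATGA and had no ACA near the end, so the letters of these 4 did not show the H/ACA ending that the label implies, and they are called by their symbols. Scarna17 also held TGATGA and had no H box, and its ACA started at base 68 of 79. Scarna10 is known as a composite RNA that carries boxes of both classes. For comparison, 75.3% of 97 Snord (C/D box) genes held TGATGA, 10.3% the ACA, 49.5% the H box letters and 3.09% both H box and ACA. TGAG, the letters of the Cajal body box, were in 63.9% of the members and in 84.5% of the Snord genes, so they did not mark the members. By family, they were in 8 of 9 Scarna members (88.9%) and 15 of 27 Snora members (55.6%). All motifs were searched on the RNA strand alone. The annotated RNAs were 127 to 205 bases long for Snora (median 133) and 70 to 414 for Scarna (median 140).

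Values were raw counts of uniquely placed read pairs on exons. A 5-week library held 23198065 to 46434788 counts on genes and a 24-week library 10410625 to 13554336. The members' part of these was 44958 to 80281 counts and 5167 to 6481 counts. The ages were sequenced in separate lanes, so age and lane cannot be told apart. How the library preparation kept RNAs this short is not given in the sources used here, and its part was not tested. Of uniquely placed pairs, those on no exon were 41.0 ± 0.951% at 5 weeks and 52.0 ± 3.14% at 24 weeks (SD, n = 3). Multiply placed alignments were 34.2 ± 1.41% and 22.9 ± 0.573% of all rows of the tables. The 24-week replicate 3 stood apart in Xist, an RNA made from the inactive X chromosome of females, with 78 counts against 31677 to 59021 in the other 5 libraries. The 4 Y-linked genes examined were at 0 in the 6 libraries, and member counts are also given without this library. Among the 5-week libraries, replicate 3, the deepest, lay farthest from the others, with a chi-square per degree of freedom over genes, which grows with depth, of 84.7 and 92.3 against 17.5 between replicates 1 and 2 (8.90 to 13.7 at 24 weeks). Without it, 23 of 32 tested members were lower and 0 higher, and 2817 genes were lower and 3225 higher in place of 2141 and 2505.

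The label microglia was met, as 10 of 10 microglia markers were measured with summed levels of 27343 to 31680 CPM (counts scaled to a common library size) at 5 weeks and 23354 to 25997 at 24 weeks, 3 lower and 1 higher. Endothelial markers summed to 212 to 251 and 481 to 508 CPM (5 of 6 higher), and mural cell markers to 118 to 153 and 223 to 244 CPM (4 of 6 higher). Choroid plexus markers summed to 5320 to 8029 and 5023 to 6392 CPM (2 of 6 higher), and oligodendrocyte markers to 1740 to 2982 and 1058 to 2916 CPM (3 of 6 lower). Astrocyte markers summed to 190 to 380 and 161 to 219 CPM (2 of 5 lower), neuron markers to 56.6 to 63.9 and 30.4 to 72.5 CPM (1 of 6 lower, 1 higher), and B cell markers to 17.2 to 21.0 and 7.47 to 9.70 CPM (1 of 1 tested lower). Of neutrophil and monocyte markers (85.5 to 245 and 55.7 to 187 CPM) and T and NK cell markers (2.08 to 4.72 and 1.85 to 3.92 CPM), 5 and 2 were tested and did not pass. No marker on these lists was at 0 in the 6 libraries. The part of these cells in the results was not tested, and fewer cells of a type and less RNA per cell cannot be told apart.

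Most members were lower at 24 weeks. Of the 36 members, 32 had enough counts to be tested, and 21 of these (65.6%) were lower at an adjusted p value (padj) under 0.05 in edgeR's quasi-likelihood test, against 13.3% of the 16157 genes tested. None was higher (also 0 with DESeq2 and limma-voom, and 0 at an unadjusted p under 0.05 with each), against 15.5% of all genes. With scaling by total counts only, 20 members were lower and 0 higher, while the split of all genes moved from 2141 lower and 2505 higher to 1466 and 3229. The median log2 fold change (log2FC, 24 minus 5 weeks) of the tested members was -1.61, with a range from -5.78 to 0.39, and that of all genes was 0.00. In 31 of 32 the log2FC was negative. Of the 21 that passed, 12 fell more than 8-fold and 9 between 2-fold and 8-fold. The 12 include Snora34, Snora69, Snora57 and Snora33, which passed the filter on low counts through the 5-week libraries alone. The ages did not overlap in 23 of 32 (71.9%), each lower at 24 weeks, while 45.1% of all genes did not overlap in either direction and 22.1% were lower without overlap.

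**Figure D1:**
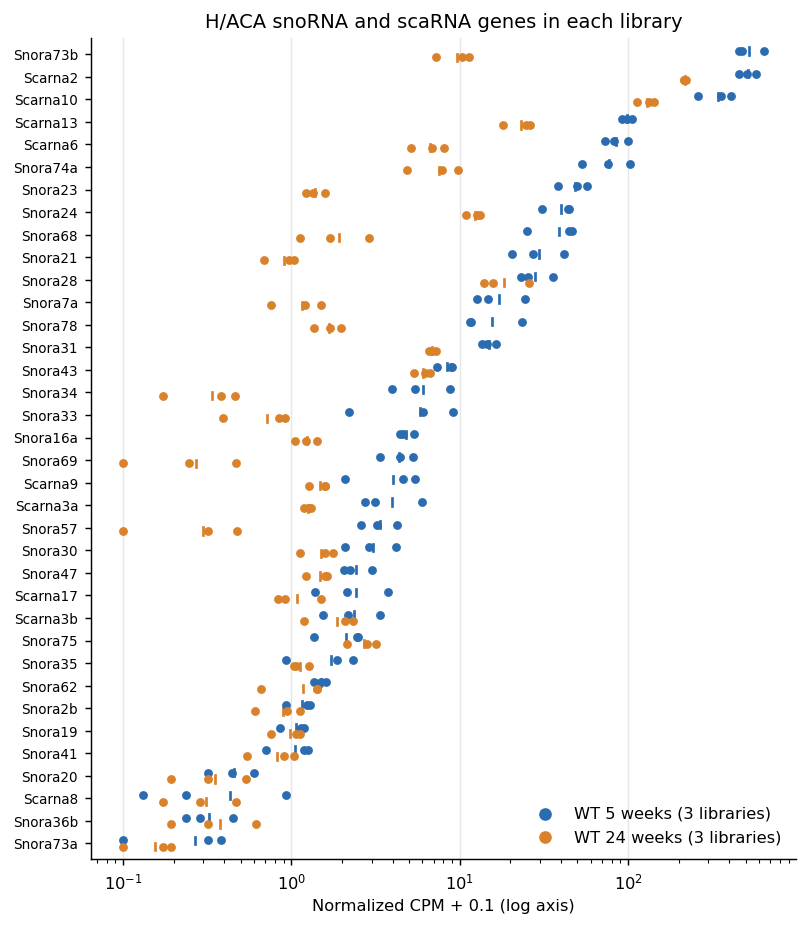
Normalized CPM + 0.1 (log axis) of the 36 members in each library, blue for the 3 libraries at 5 weeks and orange for the 3 at 24 weeks, with a tick at each age's mean. Snora73b has means of 526 CPM at 5 weeks and 9.55 CPM at 24 weeks, and in 23 members the orange points lie apart from and to the left of the blue ones.

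The count of lower members differed with the filter and with the mean level. The filter asked for 0.544 CPM in at least 3 libraries. Of the tested members, 26 reached this in the 6 libraries and 17 of these were lower. The other 6 reached it in each library at 5 weeks alone, so for those 6 the filter itself favoured a difference. Of those 6, 4 were lower, namely Snora34, Snora69, Snora57 and Snora33. Of the 16 members with the higher mean CPM (3.15 to 366), 14 were lower with a median log2FC of -3.24. Of the 16 with the lower mean (0.838 to 3.09), 7 were lower with a median of -0.92. This mean includes the 5-week values, so a member that fell far tends to rank high, and the split is not independent of the falls. After the 5-week libraries were thinned to the 24-week depth, 21 of 32 tested members were lower, and 22 of 33 were lower without the 24-week replicate 3.

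**Figure D2:**
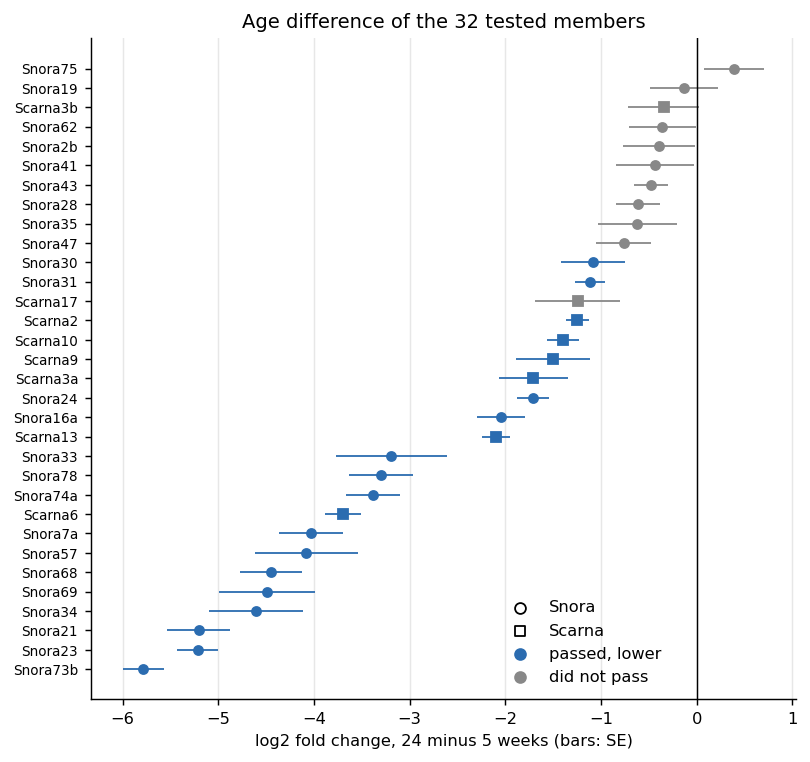
The log2FC of the 32 tested members (24 minus 5 weeks, bars: SE), with circles for Snora, squares for Scarna, blue for those that passed as lower and grey for those that did not pass. Points run from -5.78 for Snora73b to 0.39 for Snora75.

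Among Snora members, 15 of 24 tested were lower, with a median log2FC of -1.88. The steepest fall was that of Snora73b. It stood at 476, 457 and 643 CPM in the 5-week replicates 1, 2 and 3 and at 11.3, 7.09 and 10.3 CPM in the 24-week replicates. Its mean went from 526 ± 102 to 9.55 ± 2.19 CPM (SD, n = 3), a log2FC of -5.78 (SE 0.21, padj = 1.44e-07). The lowest 5-week library was thus far above the highest 24-week library.

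Snora23 and Snora21 had the next largest falls. Snora23 measured 49.4, 57.0 and 38.1 CPM at 5 weeks and 1.24, 1.48 and 1.12 CPM at 24 weeks (log2FC -5.22, SE 0.22, padj = 2.35e-07). Snora21 measured 27.0, 41.4 and 20.3 CPM and then 0.875, 0.591 and 0.933 CPM (log2FC -5.21, SE 0.33, padj = 3.99e-06). By their means both were thus lower by a like factor, 37.6-fold and 36.9-fold, without overlap. Near-identical copies of Snora21 and Snora73b exist elsewhere in the annotation, and pairs that fit both places are not in these counts.

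A further group fell from low levels to a few counts. Snora34 had 3.87, 8.66 and 5.31 CPM at 5 weeks and 0.365, 0.0739 and 0.280 CPM at 24 weeks, which were 5, 1 and 3 counts (log2FC -4.60, SE 0.49, padj = 1.07e-04). Snora69, hosted by Rpl39, had 3.25, 5.20 and 4.32 CPM and then 0.146, 0.369 and 0 CPM, or 2, 5 and 0 counts (log2FC -4.49, SE 0.50). Snora57 had 3.12, 4.16 and 2.49 CPM and then 0.219, 0 and 0.373 CPM, or 3, 0 and 4 counts (log2FC -4.08, SE 0.54). Their 24-week values rest on so few counts that the size of the fold is loosely set, although the ages did not overlap. They passed the filter through the 5-week libraries alone, as did Snora33, which had 4, 11 and 8 counts at 24 weeks.

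Snora68, which guides pseudouridylation of 28S rRNA, and Snora7a were better counted. Snora68 measured 25.2, 46.3 and 44.4 CPM at 5 weeks and 1.60, 1.03 and 2.80 CPM at 24 weeks (log2FC -4.45, SE 0.33, padj = 1.04e-05). Snora7a measured 12.5, 24.2 and 14.6 CPM and then 0.656, 1.11 and 1.40 CPM (log2FC -4.04, SE 0.33, padj = 2.41e-05). In both, each 24-week library was below each 5-week library by several fold.

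Snora74a and Snora24 were the other Snora members of the 8 with the highest mean level. Snora74a, also known as U19, measured 76.1, 103 and 53.1 CPM at 5 weeks and 9.70, 4.80 and 7.75 CPM at 24 weeks (log2FC -3.38, SE 0.28, padj = 2.29e-05). Snora24, a guide for 18S rRNA, measured 30.9, 44.8 and 43.8 CPM and then 10.9, 12.6 and 13.1 CPM (log2FC -1.71, SE 0.16, padj = 5.53e-05). Snora24 thus fell 3.27-fold by its means while Snora74a fell 10.4-fold. The remaining 5 Snora members that were lower, named after their values were seen, were Snora78 (log2FC -3.30), Snora33 (-3.19), Snora16a (-2.04), Snora31 (-1.12) and Snora30 (-1.08).

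Of the Scarna members, 6 of 8 tested were lower, with a median log2FC of -1.45. Scarna2 measured 576, 511 and 458 CPM at 5 weeks and 214, 214 and 222 CPM at 24 weeks (log2FC -1.25, SE 0.12, padj = 5.19e-05). Scarna10 measured 408, 357 and 260 CPM and then 143, 114 and 133 CPM (log2FC -1.40, SE 0.16, padj = 1.94e-04). The 2 most counted scaRNAs thus fell between 2-fold and 3-fold, 2.38-fold and 2.63-fold by their means.

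Scarna6, also known as U88, fell most among them. It measured 100, 83.0 and 72.6 CPM at 5 weeks and 8.02, 5.02 and 6.72 CPM at 24 weeks (log2FC -3.69, SE 0.19, padj = 7.33e-07). Scarna13, also known as U93, measured 98.2, 91.6 and 106 CPM and then 26.2, 18.0 and 24.8 CPM (log2FC -2.10, SE 0.15, padj = 7.63e-06). At 5 weeks these scaRNAs had like CPM (means 85.4 and 98.5), and at 24 weeks Scarna13 was above Scarna6 in each library (means 23.0 and 6.59).

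The smaller Scarna members were less certain. Scarna3a measured 2.62, 5.90 and 3.05 CPM at 5 weeks and 1.09, 1.18 and 1.21 CPM at 24 weeks (log2FC -1.71, SE 0.36, padj = 0.00544). Scarna9 measured 5.34, 4.50 and 1.98 CPM and then 1.17, 1.48 and 1.49 CPM (log2FC -1.50, SE 0.38, padj = 0.0139). The call of Scarna9 was lost with limma-voom (padj = 0.0847) and without the 5-week replicate 1 (0.0552) or the 24-week replicate 1 (0.0663). Scarna17 measured 2.03, 3.67 and 1.29 CPM and then 0.729, 0.812 and 1.40 CPM, with overlap, and did not pass (log2FC -1.24, padj = 0.0571). It passed in 3 of 16 fits, with DESeq2 (padj = 0.033), without a filter (0.0104) and without the 5-week replicate 3 (0.013). Scarna3b did not pass either (log2FC -0.34, SE 0.37, padj = 0.519).

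The tested members that did not pass numbered 11, of which 9 were Snora. Snora75 measured 2.40, 2.36 and 1.27 CPM at 5 weeks and 2.04, 2.73 and 3.08 CPM at 24 weeks (log2FC 0.39, SE 0.31, padj = 0.378). Snora19 had a log2FC of -0.13 (padj = 0.809) and Snora62, also known as E2, one of -0.36 (padj = 0.472). Snora28, named after its values were seen, was the best counted of them, at 23.0, 35.8 and 25.5 CPM and then 13.9, 15.6 and 25.6 CPM. Only its 24-week replicate 3 reached the 5-week range (log2FC -0.62, padj = 0.0646), and without that library the log2FC was -0.93 with padj = 0.0104. Snora28 passed in 4 of 16 fits, the others being DESeq2 (padj = 0.0292), no filter (0.00437) and the replicate number as a block (0.0432). The other 5 Snora members (Snora47, Snora35, Snora43, Snora41 and Snora2b, named after their values were seen) had log2FC from -0.76 to -0.39, and the ages of Snora47 and Snora43 did not overlap.

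The 4 members just inside the count rule were not tested. They were Snora20 with 46 counts in all, Scarna8 with 34, Snora36b with 31 and Snora73a with 16. Just outside were Snora5c with 7 counts and Snora15 with 2, and the other 12 genes left out were listed at 0 in the 6 libraries. In the annotation used here, 11 of those 12 overlapped an exon of another gene on the same strand, as did 18 of the 36 members, 5 of them an exon of a miRNA gene alone. The counting mode used leaves out a pair that lies on exons of more than 1 gene, so a listed 0 need not mean absence of the RNA. Snora28, Snora7a, Snora75, Snora74a, Snora2b, Snora33, Snora68, Snora24, Snora16a, Snora43, Scarna10, Scarna3b and Snora73a carry this limit, and Snora34, Snora36b, Snora19, Scarna13 and Scarna3a carry it through an annotated miRNA. Near-identical copies (at least 95% identity over 90% of the length) were found for 8 members.

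The members differed widely in level. Per kilobase of annotated length, mean levels ran from 0.813 to 2564 CPM per kb at 5 weeks (median 38.8) and from 0.270 to 523 CPM per kb at 24 weeks (median 9.15). At 5 weeks the order was Snora73b (2564), Scarna2 (1244) and Scarna10 (1052). At 24 weeks it was Scarna2 (523), Scarna10 (399) and Snora28 (145), while Snora73b stood at 46.6 CPM per kb. Across the 32 tested members, log2FC had a Spearman correlation of -0.61 with the 5-week level, of 0.15 with the 24-week level and of -0.23 with length. These describe members measured in the same libraries, and the first 2 share values with the fold change.

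**Figure D3:**
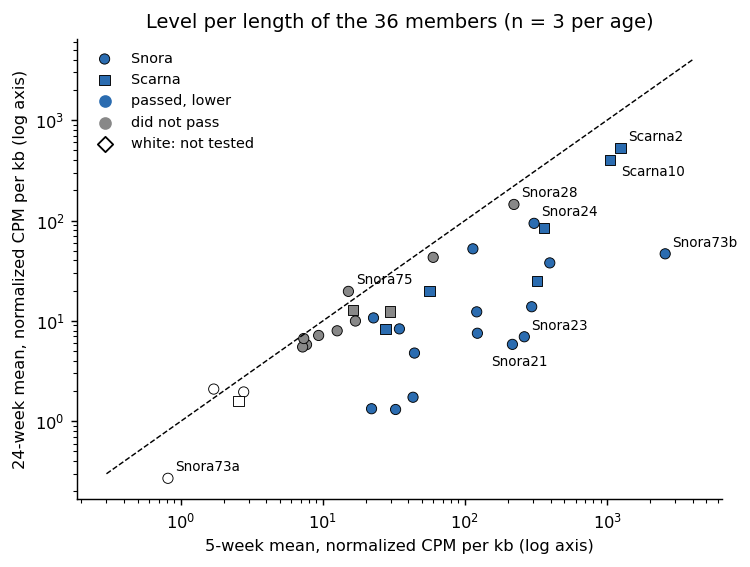
Mean level per length at 24 weeks against 5 weeks for the 36 members, in normalized CPM per kb on log axes (n = 3 per age). The dashed line marks equal levels, and Snora73b lies farthest below it, at 46.6 against 2564.

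The shift changed the make-up of the class. Of gene counts, 0.187 ± 0.0124% fell on the members in the younger mice and 0.0477 ± 0.00205% in the older (SD, n = 3), 3.93-fold less. The share of the Snora members went from 0.0851 ± 0.00649% to 0.00823 ± 0.000847% (10.3-fold less), and that of the Scarna members from 0.102 ± 0.0166% to 0.0394 ± 0.00137% (2.59-fold less). The ratio of Scarna to Snora counts was 1.21 ± 0.281 and 4.82 ± 0.378. None of these overlapped between ages, and each had p = 0.1 by an exact two-sided permutation test, the smallest value that 3 against 3 libraries allow. Without Snora73b the Snora share was 4.76-fold lower at 24 weeks.

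At 24 weeks a pair of scaRNAs supplied most member counts. Scarna2 and Scarna10 together made up 49.6, 44.2 and 38.7% of member counts in the 5-week replicates and 75.5, 76.4 and 73.6% in the 24-week replicates. Snora73b made up 24.0, 23.3 and 34.7% and then 2.39, 1.65 and 2.13%. The other members together held 28.5 ± 3.53% and 22.8 ± 1.34%.

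**Figure D4:**
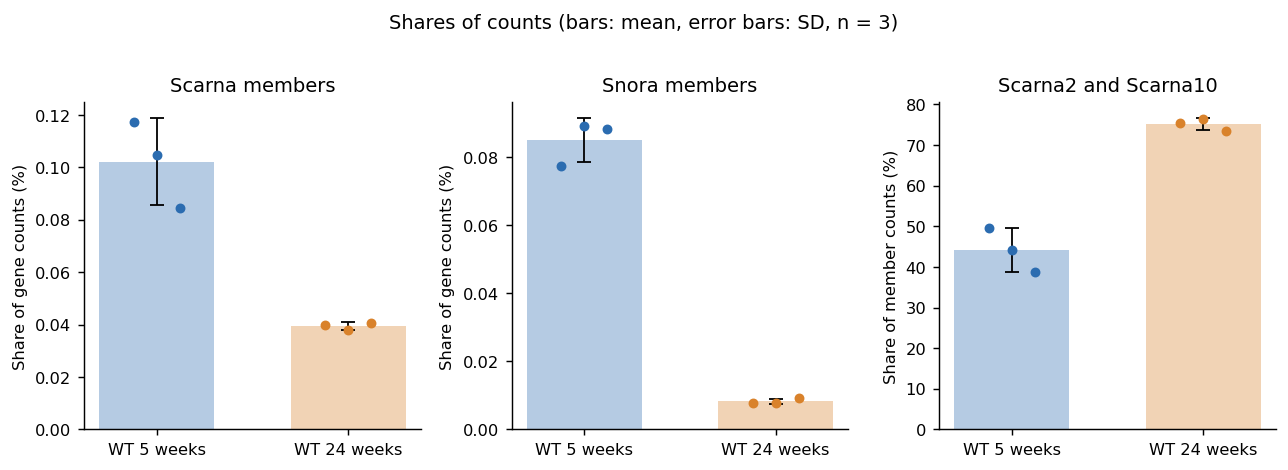
Share of gene counts on the Scarna and on the Snora members, and share of member counts on Scarna2 and Scarna10, in percent (bars: mean, error bars: SD, points: the 3 libraries of each age). The 24-week means are 0.0394, 0.00823 and 75.2%.

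The C/D box snoRNAs are the class most like the members. The classes were split by symbol, and 6 of 9 Scarna members, among them Scarna2, held the C box letters TGATGA. The ratio given here is thus not strictly one of H/ACA to C/D box RNAs. Of 26 Snord genes tested, 8 were lower and 1 higher, with a median log2FC of -0.83, and of 402 other genes up to 300 bases long, 125 were lower and 59 higher (median -0.27). The ratio of member to Snord counts was 0.972 ± 0.0633 at 5 weeks and 5.67 ± 0.207 at 24 weeks, without overlap between ages (log2 change 2.55, exact permutation p = 0.1). This rested on single genes. Snord17, named after its values were seen, held 90.0% of Snord counts at 5 weeks and 49.9% at 24 weeks (log2FC -5.47), and without Snord17 and Scarna2, the most counted of each class, the log2 change of the ratio was -0.32. By summed counts, a difference between the classes beyond these genes was thus not shown. Gene by gene, 65.6% of the tested members and 30.8% of the tested Snord genes were lower, and this difference was not tested.

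The log2FC was larger in size for the member than for its host gene in 19 of 25 pairs, and larger for the host in the other 6 (the hosts of Snora19, Snora30, Snora41, Snora47, Snora62 and Snora75). A gene on the same strand enclosed 29 of the 36 members, 27 of them in a protein-coding gene. Where more than 1 gene did, the gene with the highest mean level was taken as the host. Scarna2, Scarna13, Scarna17, Snora24, Snora43, Snora57 and Snora74a had no such host. In 25 pairs both genes were tested, with 24 distinct hosts, of which 8 were lower, 5 higher and 11 did not pass. Of all genes tested, 13.3% were lower and 15.5% higher. The hosts' median log2FC was -0.13, with a range from -1.11 to 1.13. Of the 16 pairs whose member was lower, the host was lower in 6, higher in 3 and did not pass in 7. The log2 ratio of member to host was lower at 24 weeks without overlap in 19 of 25 pairs, overlapped in 6 and was higher without overlap in 0, and its median change was -1.82. The share for other pairs of genes was not computed. Since 16 of the 25 members were lower themselves, the count of 19 is not independent of the members' own falls. In the annotation used here, Snora28, Snora7a, Snora75, Snora16a, Snora2b, Snora33, Snora68 and Scarna10 overlap an exon of their own host. Read pairs lying on both exons are left out of both counts, so the ratios of these members carry that limit.

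Snora23 and Snora73b, with the 2 largest falls, were paired with hosts that did not pass. Ipo7, a nuclear import receptor and host of Snora23, measured 137, 139 and 108 CPM at 5 weeks and 149, 121 and 131 CPM at 24 weeks (log2FC 0.06, padj = 0.755). Rcc1, the exchange factor of the GTPase Ran and host of Snora73b, measured 11.5, 12.4 and 14.2 CPM and then 10.5, 10.6 and 11.0 CPM (log2FC -0.25, padj = 0.226). On the same strand 2 genes enclose Snora73b. Rcc1 was taken for its higher level, and the other possible host was not examined. Atg16l1, an autophagy gene and host of Scarna6, had a log2FC of -0.12 (padj = 0.405), and Ncapd2, a condensin subunit and host of Scarna10, one of 0.18 (padj = 0.366).

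In 3 pairs the member was lower while its host was higher. They were Snora30 in Srcap, a chromatin remodelling ATPase (host log2FC 1.13, padj = 3.94e-04), Snora31 in Tpt1 (0.50, padj = 0.00495) and Scarna9 in Cep295, a centriole gene (0.45, padj = 0.0087). Ncl, which encodes nucleolin and hosts Snora75, was also higher (0.64, padj = 0.011), next to the 0.39 of Snora75 that did not pass. The calls of Snora30 and Scarna9 were lost under some alternatives.

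Hosts that encode ribosomal proteins were lower in 5 of 5 reported pairs, by less than their members apart from Rpsa. They were Rpsa (log2FC -1.11), Rpl39 (-1.01), Rps12 (-0.94), Rpl32 (-0.80) and Rpl23 (-0.44), with a median of -0.94. Their members Snora62, Snora69, Snora33, Snora7a and Snora21 had a median log2FC of -4.04, and 4 of the 5 were lower, Snora62 being the exception with a log2FC of -0.36. Of these members, Snora69 and Snora33 passed the filter through the 5-week libraries alone, so for them the filter itself favoured a difference. The call of Rpl23 was lost with limma-voom (padj = 0.0690). These pairs were grouped after their values were seen.

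**Figure D5:**
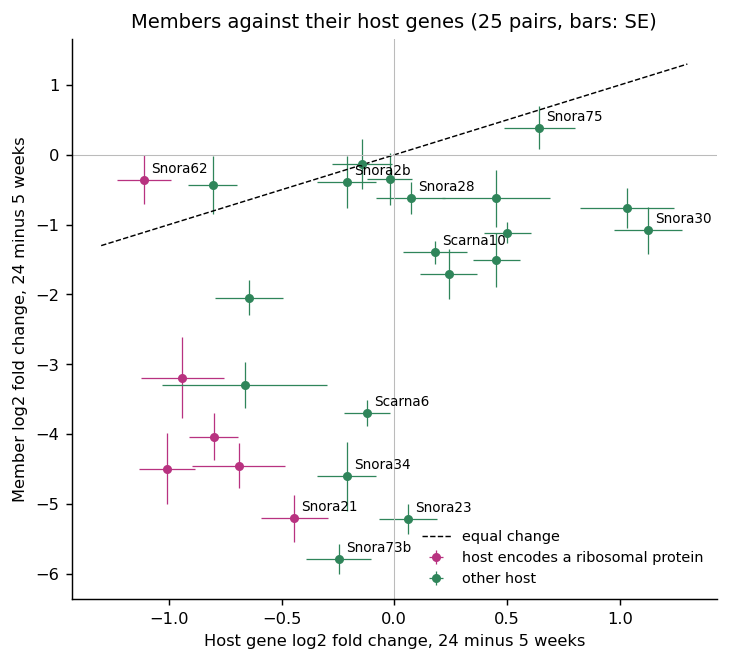
log2FC of the member against that of its host for 25 pairs (24 minus 5 weeks, bars: SE), purple where the host encodes a ribosomal protein. The dashed line marks equal change, and most points lie below it, down to -5.78 for Snora73b at a host value of -0.25.

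One host held a pair of tested members that differed in their values. Kansl2, a subunit of a histone acetyltransferase complex (log2FC -0.21, padj = 0.254), holds both Snora34 and Snora2b. Snora2b measured 1.19, 1.14 and 0.831 CPM at 5 weeks and 0.510, 1.03 and 0.840 CPM at 24 weeks (log2FC -0.39, padj = 0.46). The log2 ratio of Snora34 to Snora2b was 1.69, 2.91 and 2.66 at 5 weeks and -0.45, -3.27 and -1.44 at 24 weeks. The change of -4.14 was without overlap (exact permutation p = 0.1). The 24-week ratios rest on 5, 1 and 3 counts of Snora34 against 7, 14 and 9 of Snora2b, and both members passed the filter through the 5-week libraries alone, so this is a description of 1 thinly counted pair.

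A second pair is alike in sequence. Scarna3a and Scarna3b, which lie in different hosts, were 85.7% identical. Their log2 ratio went from 0.75 ± 0.18 to -0.53 ± 0.47 (SD, n = 3), a change of -1.28 without overlap (exact permutation p = 0.1). Both overlap an exon of another gene in the annotation, a miRNA in the case of Scarna3a, and both were thinly counted, with 395 counts in all for Scarna3a and 277 for Scarna3b.

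Most protein genes on the lists drawn up around the H/ACA pathway did not pass the test. Of 35 genes on lists of core, assembly and processing, Cajal body and stand-alone pseudouridine synthase genes, 4 were lower (11.4%, against 13.3% of all genes), 3 higher (8.57%, against 15.5%) and 28 did not pass, with a median log2FC of 0.06. With counts this small, the shares do not set the lists apart from all genes. The 35 also include 12 stand-alone pseudouridine synthases, of which 0 passed, so the shares are not those of the H/ACA pathway alone. Dkc1, which encodes dyskerin, the pseudouridine synthase of the complex, measured 21.7, 19.8 and 15.9 CPM at 5 weeks and 19.2, 18.5 and 22.0 CPM at 24 weeks (log2FC 0.06, padj = 0.8). The other 3 core proteins split in direction. Nop10 went from 14.0 ± 0.463 to 8.43 ± 0.622 CPM (log2FC -0.73, SE 0.14, padj = 0.00347) and Nhp2 from 15.3 ± 0.829 to 9.61 ± 1.49 CPM (log2FC -0.68, SE 0.15, padj = 0.00768). Gar1 rose from 3.51 ± 0.803 to 6.57 ± 0.608 CPM (log2FC 0.90, SE 0.22, padj = 0.0101).

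Of 13 assembly and processing genes, 2 were lower and 2 higher. Naf1, the assembly factor that Gar1 replaces, rose with a log2FC of 0.78 (padj = 0.0023), and Tgs1, the methyltransferase that modifies the cap of some of these RNAs, rose by 0.70 (padj = 0.00566). Ruvbl1 and Pih1d1, of the chaperone complex that helps load the core proteins, had log2FC of -0.72 (padj = 0.00645) and -0.51 (padj = 0.0177). Of 6 Cajal body genes 0 passed (0 lower and 1 higher at an unadjusted p under 0.05), and of 12 stand-alone pseudouridine synthases 0 passed (1 lower and 1 higher unadjusted). Among 4 C/D core genes, Fbl, the methyltransferase fibrillarin, and Snu13 were lower (log2FC -0.93 and -0.45).

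Terc, the telomerase RNA, which carries an H/ACA domain and binds the same core proteins, is not named Snora or Scarna and was not a member. It measured 7.87, 7.13 and 9.79 CPM at 5 weeks and 4.16, 4.50 and 2.99 CPM at 24 weeks. It was lower without overlap (log2FC -1.08, SE 0.21, padj = 0.00383), next to the median of -1.61 of the tested members.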

How the data were processed

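RNA-seq libraries were made from CD11b-selected microglia of 6 WT females, 3 for each age of 5 and 24 weeks. Per the labels and the study's methods, the authors used trim_galore for trimming, TopHat2 2.0.13 for strand-specific alignment to GRCm38 and HTSeq 0.6.1 for counting uniquely placed pairs per gene (union mode, reverse strand, minimum quality 10, exons of Ensembl release 75). The deposited values are these raw counts for 38924 genes, without normalization. Their own comparison used DESeq2 1.6.3. Rows that name no gene held 60.6 to 65.8% of all rows' counts and were left out.

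For the age comparison edgeR 4.0.16 (R 4.3.3) was used (TMM, filterByExpr by age with 16157 genes left, quasi-likelihood test with age as the only term, Benjamini-Hochberg adjustment over the genes tested), which was also tested on simulated data. Standard errors were derived from the log2FC and its F statistic. CPM values were scaled by TMM. Replicates are separate mice. Shares and ratios were compared with an exact two-sided permutation test over libraries (scipy 1.17.1), and member to host ratios took an offset of 0.5 counts. Positions, sequences, hosts and overlaps came from GENCODE mouse release 21, which matched 37607 genes and is not the annotation used for counting. Copies were searched with BLAST 2.17.0.

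Members and lists were chosen with earlier results of these data known. Genes are named by a rule: the 8 members with the highest mean level, the 8 largest falls and rises among those that passed, the tested Scarna members, the 4 smallest changes, those next to the count minimum, their hosts, and the H/ACA protein genes and Terc. Other genes are marked as named after their values were seen, and 1 host gene is not reported here. Alternatives were other scalings, DESeq2 1.42.0, limma-voom (limma 3.58.1), other filters, thinning, a replicate block, other membership or class definitions and leaving out each library.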

Additional observations from a re-analysis of the deposited data

How the results depend on the processing

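Over the 15 other fits, 19 to 23 members were lower (19 with limma-voom, 20 with total counts only, 23 with DESeq2, 23 of 36 without a filter), apart from 15 of 22 when 10 counts in every library were asked for, and 0 were higher in each. Of the 21 members that were lower, 19 were so in each fit that tested them, Scarna9 and Snora30 being the exceptions. With at least 10 counts in every library, 9 of 14 Snora members were lower. Without a filter, 13 Snord genes were lower in place of 8. Leaving out each library in turn gave 19 to 23 lower members, 14 to 16 lower Snora and 5 to 7 lower Scarna members, and 19 to 21 host pairs with a lower ratio and no overlap. The H/ACA protein genes that were higher numbered 5 in place of 3 with total counts only, which shifts all genes upward (median log2FC 0.10 against 0.00), and 3 to 6 without 1 library, the 6 being without the 5-week replicate 3.

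The log2 change of the members' share of gene counts was -1.97, -2.45 without Scarna2 and, in an alternative added after seeing the data, -1.54 without Snora73b. It was -2.03 to -1.94 without 1 library. The log2 change of the ratio of member to Snord counts was 2.52 to 2.60 without 1 library and reversed to -0.32 without the most counted gene of each class. Differences near 0 changed sign when 1 library was left out: Snora19 (-0.29 to 0.044), Ipo7 (-0.038 to 0.12) and Dkc1 (-0.055 to 0.15). The cause of these shifts was not tested. With the replicate number as a block, 22 members were lower, Snora28 passed and Rpl23 did not. Deviations of same-numbered libraries correlated at 0.066, 0.089 and -0.045, so the numbers gave no sign of pairing. Groups of 3 libraries limit the permutation tests to p = 0.1, and members with few counts at 24 weeks have loosely set folds.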
